A study of Mus musculus with 10 samples.

Results

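The genes described here, 10 in number, serve protein folding in the endoplasmic reticulum (ER) and were measured in pancreas tail pieces of female mice that differed in the insulin receptor gene Insr. They were taken by name, as rows of the deposited count table: Hspa5, Hsp90b1, Pdia4, Pdia6, Calr, Canx, Hyou1, Dnajb9, Sdf2l1 and Manf. All 10 were among the 24421 genes in the table, and all 10 were among the 13688 genes that passed the filter on low counts and were tested. The count data comprised 1 library per mouse, from 3 mice with 0 floxed Insr alleles (labelled Insr WT, Ptf1aCreER with Insrw/w), 3 with 1 (Insr Het, Insrw/f) and 4 with 2 (Insr KO, Insrf/f). All mice were 12 weeks old and carried, besides Ptf1aCreER, the nuclear fluorescent reporter nTnG. Ptf1aCreER is a Cre recombinase under control of Ptf1a, an acinar cell gene, that acts once tamoxifen is given. Cells without this Cre keep their receptor alleles, and the tissue pieces held such cells too. Each library is named by genotype and mouse number, as in WT-2404. The title of the series asks whether the insulin receptor of acinar cells acts on digestive enzyme production and inflammation in obesity-associated pancreatic cancer initiation. Diet and tamoxifen dosing are not given in the sources used here.

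Secreted proteins are threaded into the ER, folded and given disulfide bonds there before export. Acinar cells of the pancreas make more secreted protein than almost any other cell, and their ER is correspondingly dense. Hspa5 encodes BiP, the luminal chaperone of the HSP70 family. Dnajb9 is one of its J-domain partners, Hyou1 a large HSP70 relative that exchanges its nucleotide, Manf a small protein that binds it and is partly secreted, and Sdf2l1 a partner of luminal J-domain proteins. Hsp90b1 encodes GRP94, the ER member of the HSP90 family. Calr and Canx encode calreticulin and calnexin, the soluble and the membrane-bound lectin that hold newly made glycoproteins. Pdia4 and Pdia6 encode protein disulfide isomerases, which make and rearrange disulfide bonds. When unfolded protein accumulates, the sensors ATF6, IRE1 and PERK raise transcription of many of these genes in what is called the unfolded protein response.

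One route of that response runs through the ER stress element, the letters CCAAT and CCACG separated by 9 bases, which is bound by NF-Y and ATF6. Promoter sequences from RefSeq (build GRCm38.p6, 250 bases before to 50 bases after the gene start) matched 8 of the 10 genes. Hyou1 and Manf had no entry. The element, searched on both strands, was in 5 of these 8 windows, those of Hspa5, Hsp90b1, Calr, Canx and Pdia6, and in 0.119% of all 32851 promoter windows of that length. Hsp90b1 had it at 2 places. The stretches of the 5 genes that share it are printed. Many of the 10 genes are known targets of the response that uses this element, so this share is not an independent finding. Capitals mark the element, and CGTGG at its left end means that it lies on the opposite strand.
Hspa5, chr2:34772020-34772048, plus strand: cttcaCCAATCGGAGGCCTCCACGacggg
Hsp90b1, chr10:86705618-86705676, minus strand: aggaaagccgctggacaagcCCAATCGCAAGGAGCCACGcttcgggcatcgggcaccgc
Hsp90b1, chr10:86705513-86705571, minus strand: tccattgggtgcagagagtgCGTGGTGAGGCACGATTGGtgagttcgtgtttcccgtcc
Calr, chr8:84847055-84847113, minus strand: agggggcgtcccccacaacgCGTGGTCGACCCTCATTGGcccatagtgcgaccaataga
Canx, chr11:50325780-50325838, minus strand: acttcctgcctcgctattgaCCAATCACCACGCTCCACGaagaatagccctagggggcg
Pdia6, chr12:17266471-17266529, plus strand: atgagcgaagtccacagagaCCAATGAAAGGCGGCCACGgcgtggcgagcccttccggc

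The related element ERSE-II, ATTGG and CCACG separated by 1 base, was in 0 of the 8 windows and in 0.0365% of all windows. The core TGACGTG of the unfolded protein response element was in 1 of them, that of Hspa5, and in 2.01% of all windows. The promoter windows of Pdia4, Dnajb9 and Sdf2l1 held none of these letter patterns, which says nothing about factors that bind elsewhere. A match is a match of letters, and binding was not measured here.

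In the GENCODE M21 annotation of the same build, mm10, the genes lie apart from each other on chromosomes 2, 6, 8, 9, 10, 11, 12 and 16, with Hyou1 and Manf on chromosome 9 and Pdia6 and Dnajb9 on chromosome 12. Exons of Hspa5, Calr, Canx, Hyou1 and Sdf2l1 overlapped no exon of another gene there. Hsp90b1 overlapped the pseudogene 1810014B01Rik on the opposite strand over 415 bases, 10.3% of its exon length, and shared 273 bases at 100% identity with it. Whether these 273 bases are part of that overlap was not examined. On the same strand, Hsp90b1 overlapped the microRNA Gm25745 over 3.3% and the transcript Gm15344 over 2.1% of its exon length. Counts of Hsp90b1 are uncertain to the extent of these overlaps. Manf overlapped the antisense transcript 4930524O07Rik over 4.7% and Dcaf1 over 4.1% of its exon length. Overlaps of Pdia4, Pdia6 and Dnajb9 were at most 1.3%.

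Gene counts ran from 11718559 to 19024351 per library, with depths that overlapped between groups. Digestive enzyme genes took only 15.9% of them in WT-2404. The share was 58.6% for WT-1860 and 62.6% for KO-2124, and the other 7 libraries had 71.1% to 77.7%. WT-2404 therefore stood apart. Its record also carries another RNA extraction text than those of the other 9 libraries, with a micro kit and all genotypes named in it, so whether it was extracted differently is not known. The factors of TMM scaling (trimmed mean of M-values), which correct library size for such shifts, ran from 0.596 in KO-2126 to 3.53 in WT-2404. Unless another scale is named, levels below are in CPM, counts per 1000000 counts of the library, with library sizes scaled by TMM. Insr itself averaged 29.8 ± 9.88 CPM (SD, n = 3) where no allele was floxed and 31.5 ± 5.95 CPM (SD, n = 4) where both were, a log2 fold change of 0.09 (edgeR adjusted p = 0.864). A count over the whole gene in a mixed tissue does not show recombination in acinar cells, so it checks none of the labels, and each direction below is between libraries labelled WT, Het or KO.

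As a share of all gene counts, the summed counts of the 10 genes ran largely opposite to the enzyme share. As a share of counts outside the enzyme list, they varied less. In WT-2404 they made up 0.366% of all gene counts (Wilson 95% interval 0.363% to 0.369%, counting error alone). WT-1860 followed with 0.165% and WT-2067 with 0.111%. In Het libraries the share was 0.0937% to 0.124%, and in KO libraries 0.0985% to 0.138%. Against counts outside the enzyme list, the WT libraries had 0.410% ± 0.0221 (SD, n = 3), the Het libraries 0.401% ± 0.0401 (SD, n = 3) and the KO libraries 0.430% ± 0.0424 (SD, n = 4), and WT-2404, at 0.435%, lay inside the KO range of 0.370% to 0.469%. Per 100 counts of digestive enzymes the WT libraries held 2.29, 0.282 and 0.155 counts of the folding genes (WT-2404, WT-1860, WT-2067), against 0.123 to 0.172 in Het and 0.127 to 0.221 in KO libraries.

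Levels per kilobase of exon place the genes in order. Calr was at 71.4 ± 10.4 CPM per kilobase in WT libraries (SD, n = 3), ahead of Hspa5 at 62.4 ± 17.4 and Hsp90b1 at 50.8 ± 2.04. Calr and Hspa5, the top 2, differed by less than the SD of Hspa5. In KO libraries Hspa5 led with 100.5 ± 25.4 CPM per kilobase (SD, n = 4), and Hsp90b1 at 59.8 ± 8.65 and Calr at 55.6 ± 8.87 differed by less than their spread. Dnajb9 was last in both groups, with 7.79 ± 2.47 and 11.1 ± 3.57 CPM per kilobase. The exon lengths come from GENCODE M21, which may differ from the annotation used for counting.

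KO were set against WT libraries to see what accompanies floxing of both receptor alleles. Of the 10 genes, 0 passed an adjusted p of 0.05 in the quasi-likelihood test of edgeR, adjusted over all genes by Benjamini and Hochberg's procedure, where 0% of all 13688 tested genes passed. At an unadjusted p under 0.05, 4 were higher in KO libraries (Hspa5, Hyou1, Sdf2l1 and Manf) and 1 was lower (Pdia4). By the same rule 9.6% of all tested genes were higher and 13.9% lower. The median log2 fold change of the 10 genes was 0.51, with 8 of 10 above 0, where all tested genes had a median of 0.03 and 51.8% above 0. Exact permutation tests over mice (two-sided) gave the smallest p, 0.0571, for Pdia4 and Sdf2l1, where 0.0286 is the smallest possible. DESeq2, run as an alternative, called 0 of the 10 genes and 7.37% of all tested genes.

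**Figure D1:**
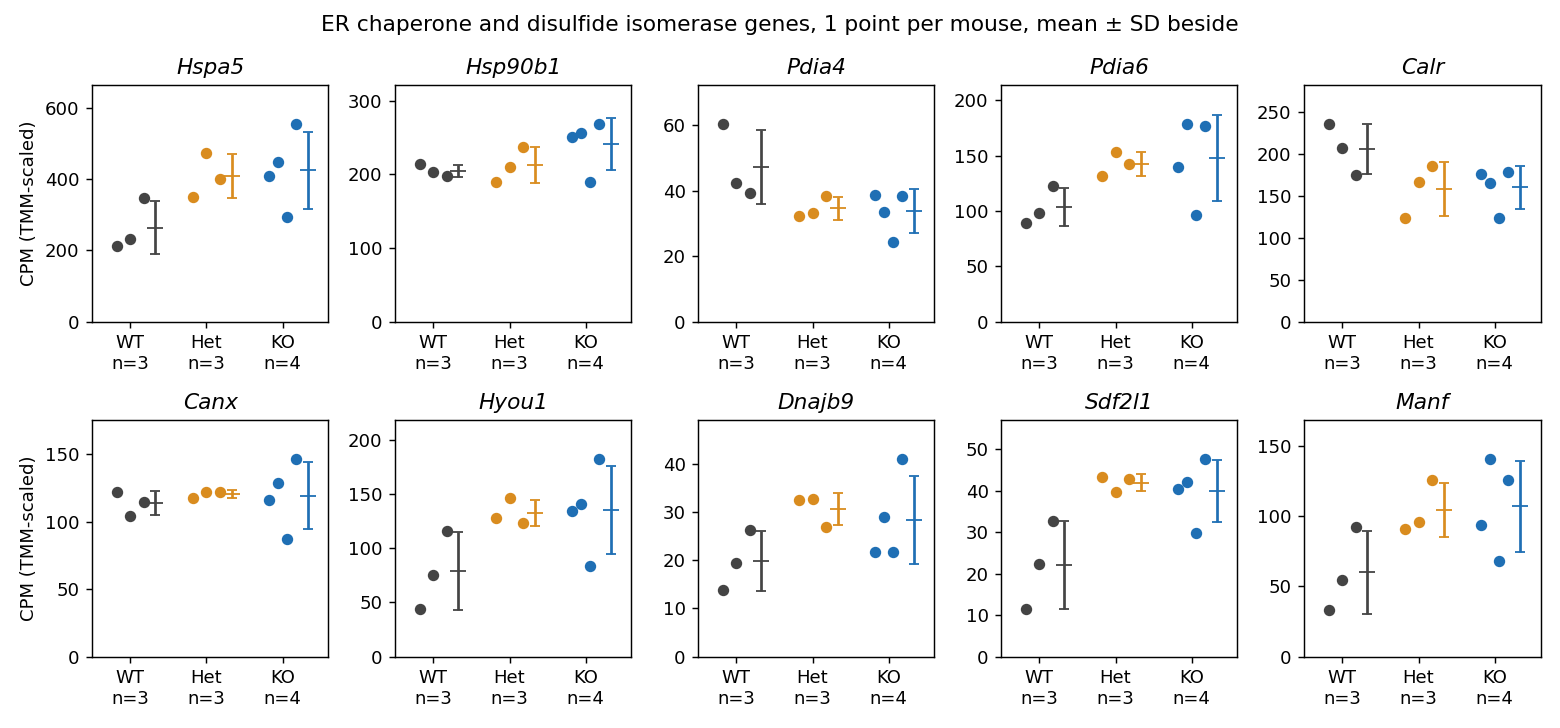
Level of each gene in TMM-scaled CPM (vertical axis, from 0, a separate scale per gene) in 3 WT, 3 Het and 4 KO libraries; points are mice, and the bar beside them is the mean ± SD. Het levels of Hspa5, Pdia6, Hyou1, Dnajb9 and Sdf2l1 lie above the WT levels, KO levels of these genes spread wider with KO-2124 lowest, and Pdia4 is the gene whose Het and KO levels all lie below WT.

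Hspa5 was at 211, 232 and 348 CPM in WT-2404, WT-1860 and WT-2067, at 349, 473 and 401 CPM in Het-2066, Het-1770 and Het-2042, and at 408, 447, 293 and 553 CPM in KO-2079, KO-2070, KO-2124 and KO-2126. All Het libraries lay above all WT libraries, though Het-2066 and WT-2067 nearly met, while KO-2124 lay inside the WT range. The log2 fold change of KO against WT was 0.69 (SE 0.31, edgeR adjusted p = 0.203), a 1.61-fold higher level, with p = 0.0857 in the exact permutation test. Het against WT gave 0.63 (SE 0.33, edgeR adjusted p = 0.287).

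Among the partners of BiP, Sdf2l1 had the largest fold change of the 10 genes in both comparisons with WT. Its level was 11.5, 22.2 and 32.7 CPM in the WT libraries in the order above, 43.2, 39.7 and 42.9 CPM in the Het libraries and 40.3, 42.1, 29.8 and 47.6 CPM in the KO libraries. The lowest Het value exceeded the highest WT value, and of the KO libraries KO-2124 fell inside the WT range. KO against WT gave a log2 fold change of 0.85 (SE 0.30, edgeR adjusted p = 0.132) and Het against WT gave 0.93 (SE 0.31, edgeR adjusted p = 0.183).

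Hyou1 followed a like order, with 44.3, 75.8 and 116 CPM in WT, 128, 146 and 123 CPM in Het and 135, 141, 83.4 and 182 CPM in KO libraries. Het libraries again lay wholly above WT, and KO-2124 below WT-2067. KO against WT gave a log2 fold change of 0.78 (SE 0.34, edgeR adjusted p = 0.190). Manf was at 33.5, 54.8 and 92.2 CPM in WT, 91.2, 96.1 and 126 CPM in Het and 94.1, 141, 67.9 and 126 CPM in KO libraries. Here both other groups overlapped WT, through Het-2066 and KO-2124. The fold change of Manf was 0.83 on the log2 scale (SE 0.35, edgeR adjusted p = 0.182). Dnajb9, the least abundant of the set per kilobase, ranged from 13.7 to 26.3 CPM in WT, 26.9 to 32.7 CPM in Het and 21.7 to 41.0 CPM in KO libraries, with a log2 fold change of 0.51 (SE 0.27, edgeR adjusted p = 0.257).

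Hsp90b1 and Canx had the smallest fold changes of the 10 genes in size, both in KO and in Het against WT. For Hsp90b1 the WT mean was 205 ± 8.23 CPM (SD, n = 3), the Het mean 212 ± 24.2 CPM (SD, n = 3) and the KO mean 241 ± 34.9 CPM (SD, n = 4). For Canx the means in this order were 114 ± 8.96, 120.3 ± 2.68 and 119 ± 24.9 CPM. Their KO against WT log2 fold changes were 0.23 (SE 0.23) and 0.07 (SE 0.23), with edgeR adjusted p of 0.558 and 0.876. Of Canx the direction turned without KO-2126, to -0.05.

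Calr, the soluble partner of calnexin, was at 235, 207 and 175 CPM in WT, 123, 166 and 186 CPM in Het and 175.5, 164, 123 and 178 CPM in KO libraries. Both other groups overlapped the WT range through WT-2067, which sat lowest among the WT libraries. Its KO against WT value was -0.36 on the log2 scale (SE 0.25, edgeR adjusted p = 0.382) and its Het against WT value -0.38 (SE 0.27, edgeR adjusted p = 0.417).

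The disulfide isomerases Pdia6 and Pdia4 had fold changes of opposite sign. Pdia6 was at 89.2, 98.7 and 123 CPM in WT, 132, 153 and 142 CPM in Het and 139.7, 178, 96.4 and 177 CPM in KO libraries, with a KO against WT log2 fold change of 0.51 (SE 0.26, edgeR adjusted p = 0.245). Pdia4 was at 60.3, 42.3 and 39.3 CPM in WT, 32.2, 33.2 and 38.5 CPM in Het and 38.8, 33.4, 24.4 and 38.3 CPM in KO libraries. Every Het and KO value of Pdia4 was below every WT value, though WT-2067 and KO-2079 nearly met. On the log2 scale it was at -0.49 (SE 0.22, edgeR adjusted p = 0.198) in KO and at -0.45 (SE 0.23, edgeR adjusted p = 0.287) in Het against WT. Pdia4 was the only one of the 10 genes whose KO and WT ranges did not overlap, and it was lower in KO. Over all tested genes such separate ranges were found for 9.17% in that direction and for 6.74% in the other, where 0 of the 10 genes had them.

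Het against WT addresses 1 floxed allele and uses the same WT libraries as KO against WT, so these results are not independent. Of the 10 genes 0 passed in edgeR, against 0% of all tested genes. Sdf2l1, Dnajb9 and Manf, 3 genes, were higher at an unadjusted p under 0.05, against 8.26% of all tested genes, and 0 were lower, against 11.6%. In 5 genes (Hspa5, Pdia6, Hyou1, Dnajb9 and Sdf2l1) all Het libraries were above all WT libraries, against 11.3% of all tested genes, and in 1 (Pdia4) all were below, against 13.5%. DESeq2 called 0 of the 10 genes and 2.92% of all tested genes here. An exact permutation test of 3 against 3 mice cannot go below p = 0.1. The median log2 fold change of the 10 genes was 0.54.

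KO and Het libraries were close to each other in each of the 10 genes. Their log2 fold changes of KO against Het ran from -0.12 for Dnajb9 (SE 0.26) to 0.18 for Hsp90b1 (SE 0.23), with a median of 0.02 and 0 genes with separate ranges. In edgeR 0 of the 10 passed and 0% of all tested genes, each with an adjusted p of 1.0. With standard errors between 0.22 and 0.34, a difference of the size of these errors could not be told from 0.

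**Figure D2:**
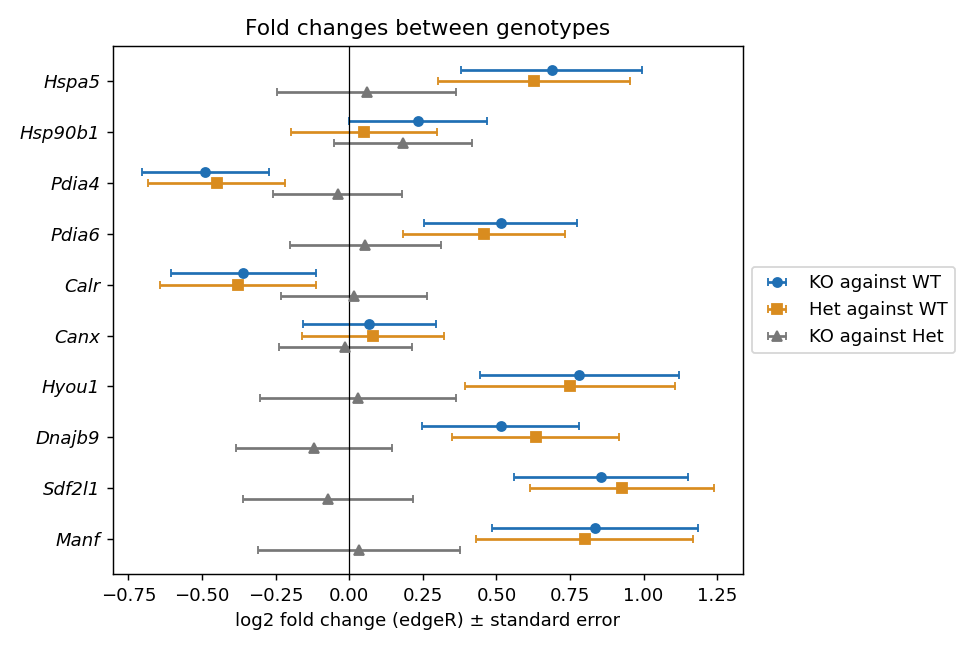
Fold change of each gene on the log2 scale (horizontal axis) with its standard error (bars) in the edgeR fit over all 10 libraries, for KO against WT (circles), Het against WT (squares) and KO against Het (triangles). Both comparisons with WT share the WT libraries; Sdf2l1, Manf and Hyou1 are farthest to the right, Pdia4 and Calr lie left of 0, and KO against Het lies near 0 throughout.

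These directions depend on how library size is scaled. By library size alone, without TMM factors, the median log2 fold change of the 10 genes in KO against WT was -0.64, beside a median of -1.17 over all tested genes, and all 10 lay below 0. Pdia4, at -1.90 (edgeR adjusted p = 0.0318), and Calr, at -1.71 (edgeR adjusted p = 0.0319), then passed, where 20.7% of all tested genes did. WT-2404 had the highest share of gene counts of all libraries for each of the 10 genes. By the other scalings, RLE factors and TMM with the enzymes left out, the medians were 0.49 and 0.50. Single libraries also moved the size. Without KO-2126 the median was 0.35, with 7 of 10 above 0. Without WT-2404 it was 0.35 too, with Sdf2l1 at 0.53, and without WT-2067 it was 0.72, with Sdf2l1 at 1.255, Manf at 1.29 and Hyou1 at 1.18. These 3 genes then passed in edgeR, with adjusted p of 0.0229, 0.0322 and 0.0393, where 13.6% of all tested genes passed.

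Ratios of genes inside 1 library do not depend on the scaling of libraries, so each gene was also expressed as its log2 level minus the mean log2 level of the other 9. On this scale Pdia4 was at -0.15, -0.97 and -1.42 in WT-2404, WT-1860 and WT-2067. Het libraries spanned -1.87 to -1.65 and KO libraries -1.95 to -1.55. Calr was at 2.02, 1.57 and 0.97 in WT, 0.40 to 0.87 in Het and 0.53 to 0.86 in KO libraries. Both genes were thus lower relative to the rest in every Het and KO library than in any WT library. Canx was lower in every KO library than in any WT library too (0.20 to 0.25 against 0.30 to 0.98). In the other direction, Sdf2l1 was at -2.79, -1.99 and -1.71 in WT and from -1.58 to -1.46 in KO libraries, and Hspa5 at 1.76 to 2.08 in WT and 2.20 to 2.35 in KO libraries. The remaining 5 genes overlapped between KO and WT. When every tested gene was expressed relative to the 10 genes, KO and WT ranges were apart for 2.35% in the higher and 9.29% in the lower direction, where 2 and 3 of the 10 genes were. For Het against WT these shares were 2.86% and 26.9%, where 1 (Sdf2l1) and 2 (Pdia4 and Calr) of the 10 genes were apart. Since the 10 values of a library are relative to each other, they are not independent of one another. The other tested genes were set against the mean of the 10, whose median fold change was above 0 (0.51 for KO, 0.54 for Het). This shifts the other genes down, so these shares are not a like baseline for the 10 genes.

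**Figure D3:**
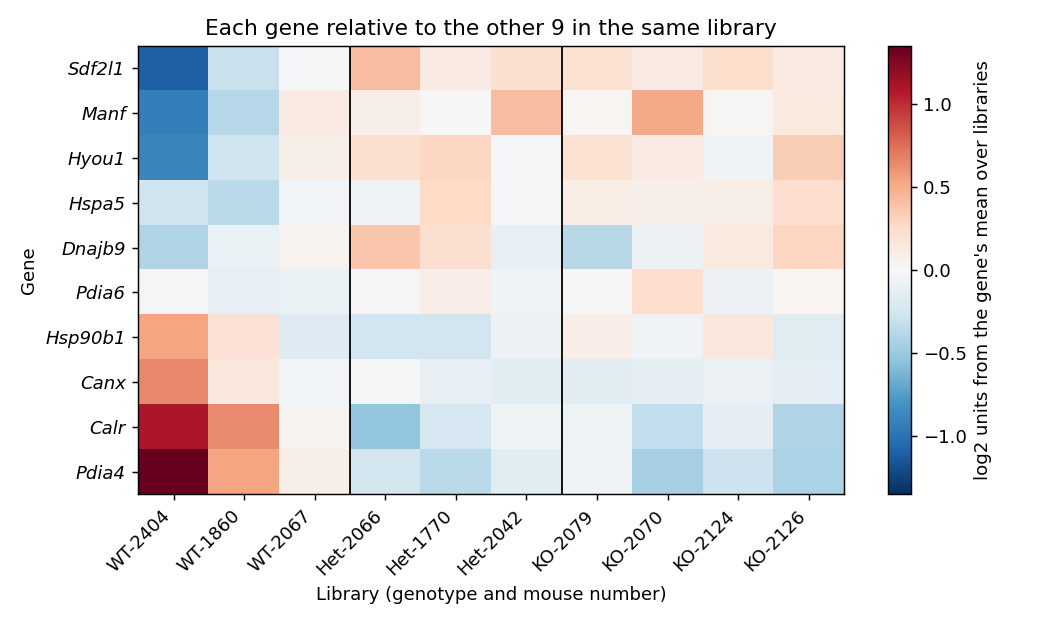
Log2 level of each gene relative to the mean of the other 9 in the same library, shown as the distance from its own mean over the 10 libraries (colour, log2 units; red above, blue below), with libraries in columns by genotype and genes in rows. WT-2404 has the deepest colours, blue for Sdf2l1, Manf and Hyou1 and red for Pdia4 and Calr; WT-1860 has the same signs in paler colours, and WT-2067 resembles the Het and KO libraries more.

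Count ratios of single pairs, chosen after their values were seen, put this in plain terms. For each Pdia4 count there were 1.48, 2.34 and 3.12 Pdia6 counts in the WT libraries, 3.69 to 4.62 in Het and 3.60 to 5.33 in KO libraries. Hyou1 per Calr count was 0.189, 0.366 and 0.664 in WT, 0.665 to 1.03 in Het and 0.679 to 1.02 in KO libraries. BiP to GRP94, Hspa5 per Hsp90b1 count, was 0.986, 1.15 and 1.76 in WT, 1.69 to 2.25 in Het and 1.54 to 2.07 in KO libraries, so that WT-2067 lay inside the range of both other groups. Within the BiP group, Hyou1 per Hspa5 count was 0.334 in WT-2067, 0.326 in WT-1860 and 0.210 in WT-2404. It was 0.308 to 0.365 in Het and 0.285 to 0.330 in KO libraries. Sdf2l1 per Hspa5 count was 0.0547 to 0.0957 in WT and 0.0860 to 0.102 in KO libraries. For Manf these ranges were 0.159 to 0.265 and 0.227 to 0.315, and for Dnajb9 0.0651 to 0.0840 and 0.0533 to 0.0742. Calr per Canx count was 1.526 to 1.982 in WT, 1.052 to 1.525 in Het and 1.217 to 1.519 in KO libraries. Ratios of other pairs were not computed.

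Profiles across libraries were also compared pair by pair. By the root mean square difference of centred log2 CPM over 10 libraries, the closest of the 10 genes to one another were Pdia4 and Calr (0.135), Hsp90b1 and Canx (0.139), Hspa5 and Pdia6 (0.145) and Hyou1 and Sdf2l1 (0.158). The farthest were Pdia4 and Sdf2l1 (0.826). Pairs in which both genes had an ER stress element in the promoter window were in different places of this order. Hsp90b1 with Canx (0.139) and Hspa5 with Pdia6 (0.145) were close. Hspa5 with Calr (0.567) and Pdia6 with Calr (0.469) were farthest apart, and the other such pairs lay between. Calr, with the element, was nearest to Pdia4, without it in the window. Over all genes outside the 10, Ssr1, a subunit of the translocon-associated protein complex, came nearest to their mean profile (0.0508), followed by Ndufs8 (0.0709), Ndufa9 (0.0784), Ndufa12 (0.0784) and Tmem59 (0.0793), where the median gene was at 0.473. The 10 genes themselves were 0.0855 (Pdia6) to 0.475 (Pdia4) from this mean, with Calr at 0.426. The mean thus averages profiles that differ, and nearness to it is not likeness to each of the 10 genes. Ndufs8, Ndufa9 and Ndufa12 belong to respiratory complex I.

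Levels of most of the genes ran with the digestive enzyme share across the libraries. WT-2404, with the lowest share, had the lowest WT level of 6 genes (Hspa5, Pdia6, Hyou1, Dnajb9, Sdf2l1 and Manf) and the highest WT level of the other 4 (Hsp90b1, Pdia4, Calr and Canx). Among the KO libraries, KO-2124 had the lowest enzyme share and the lowest CPM of all 10 genes, and KO-2126 the highest CPM of 7. On the share of all gene counts this order turned, with KO-2124 highest of the KO libraries at 0.138%. The TMM factor moves with the enzyme share as well, and the libraries share both quantities. With the log2 enzyme share as a covariate in edgeR, the KO against WT median of the 10 genes was 0.29, with 8 of 10 above 0, and the smallest adjusted p among them was 0.716. Fewer acinar cells and less RNA of these genes per acinar cell cannot be told apart in a tissue piece.

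**Figure D4:**
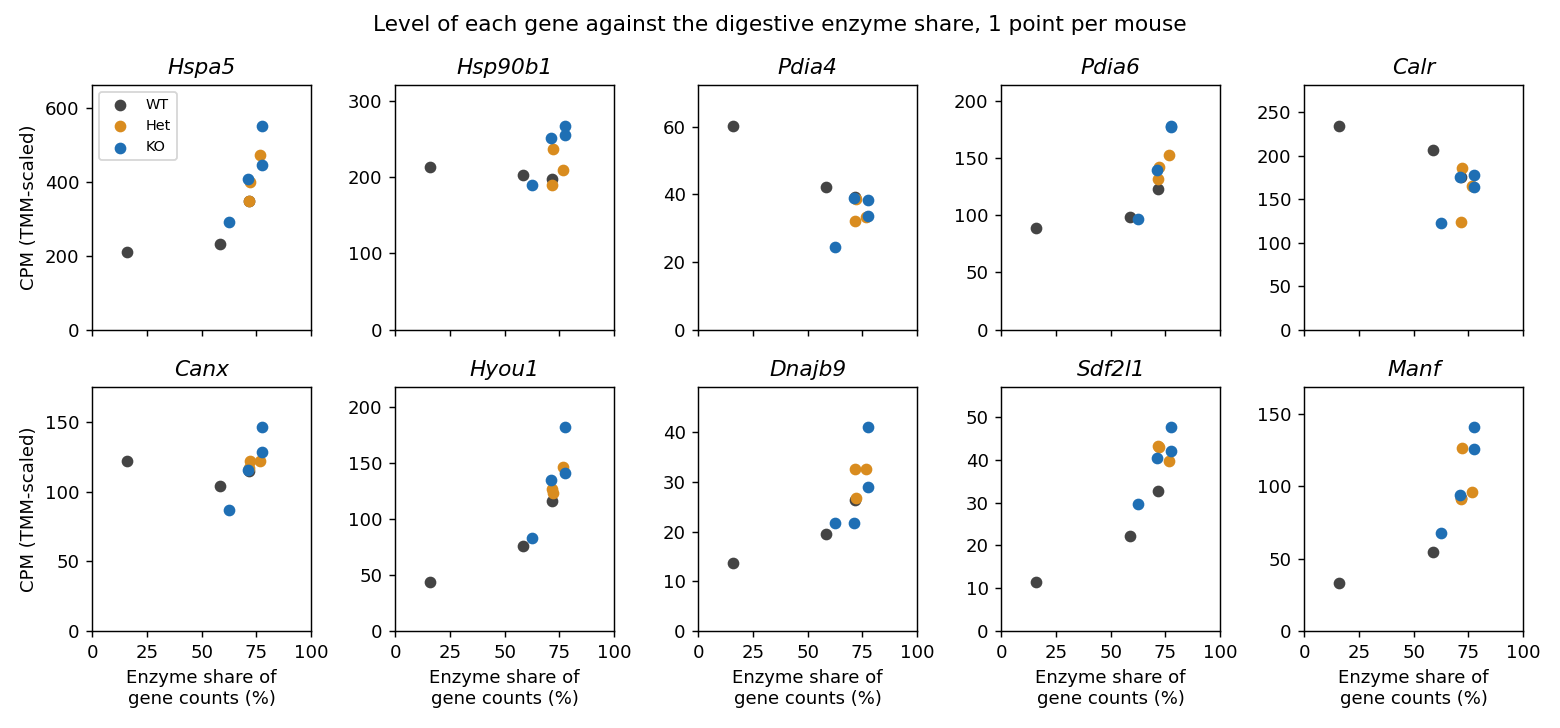
Level of each gene (vertical axis, TMM-scaled CPM, from 0) against the share of gene counts taken by digestive enzyme genes (horizontal axis, percent), 1 point per mouse, coloured by genotype. WT-2404 is the point at 15.9%, where Hyou1, Sdf2l1 and Manf are lowest and Pdia4 and Calr are highest. KO-2124 at 62.6% lies near WT-1860 at 58.6% in Pdia6, Hyou1, Dnajb9 and Hsp90b1. It lies above WT-1860 in Hspa5, Sdf2l1 and Manf and below it in Pdia4, Calr and Canx.

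Levels of cell type markers were compared over the same libraries, and under TMM scaling 0 markers of each list passed in edgeR in each comparison. By library size alone, 5 of 8 ductal, 6 of 8 fibroblast and 8 of 8 myeloid markers passed in KO against WT. So did 3 of 7 B and plasma cell and 1 of 5 T cell markers, and 20.7% of all tested genes. The 8 acinar markers summed to 20570 to 348800 CPM in WT, 353900 to 521400 CPM in Het and 198000 to 582500 CPM in KO libraries. Cpa1, Cela1, Ctrb1 and Pnlip among them are also on the digestive enzyme list and make up most of this sum. The sum is therefore not a measure separate from the enzyme share. The 8 fibroblast markers summed to 1270 to 4464 CPM in WT, 507 to 989 CPM in Het and 444 to 1137 CPM in KO libraries, the 8 ductal markers to 770.2 to 1253, 367 to 637 and 376 to 627 CPM, and the 8 myeloid markers to 393 to 1543, 208 to 322 and 119 to 442 CPM. B cells and plasma cells, the latter rich in ER, had 8 of 9 listed markers in the table, at 59.3 to 99.7 CPM in WT, 17.3 to 29.5 CPM in Het and 8.99 to 53.6 CPM in KO libraries. Islet markers, also of secretory cells, were at 470 to 5642, 4910 to 9772 and 3567 to 8424 CPM. In each of these lists 0 markers in the table were at 0 in all libraries. T cell markers summed to 3.675 to 9.675 CPM in WT, 1.315 to 2.332 CPM in Het and 1.212 to 5.483 CPM in KO libraries. For adipocyte markers the ranges in this order were 32.63 to 43.25, 57.3 to 80.38 and 40.4 to 83.73 CPM. Endothelial markers were at 77.29 to 121.3, 107.2 to 124.9 and 79.38 to 155.4 CPM. The median log2 fold change in KO against WT was 1.16 for acinar markers and 0.60 without WT-2404. Without that library, medians went from -1.28 to -1.02 for ductal, from -1.91 to -1.22 for fibroblast, from -1.67 to -0.89 for myeloid and from 0.79 to 0.29 for islet markers. They went from -1.52 to -1.80 for B and plasma cell and from -0.80 to -0.78 for T cell markers. For adipocyte markers they went from 0.61 to 0.63 and for endothelial markers from 0.33 to 0.24. By library size alone, where all tested genes had a median of -1.17, medians were 0.525 for acinar and -0.0031 for islet markers. They were -0.47 for adipocyte, -0.71 for endothelial, -2.59 for ductal, -3.29 for fibroblast and -3.06 for myeloid markers. For B and plasma cell and for T cell markers they were -2.42 and -1.91. The part of these cells in the levels of the folding genes was not tested.

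Other genes of the folding machinery were taken from lists of known function. Of 9 further genes of the BiP system, 0 passed in edgeR in KO against WT and 8 were above 0, with a median log2 fold change of 0.49. Dnajc1, a membrane J-domain protein, was at 0.49 (SE 0.22) and Dnajb11, a soluble one, at 0.65 (SE 0.31). Dnajc10, a J-domain protein that reduces disulfide bonds, was at -0.50 (SE 0.20), and its KO and WT ranges were apart. Their edgeR adjusted p were 0.194, 0.226 and 0.164.

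The 18 other oxidoreductases tested were on both sides, with 11 above and 7 below 0, a median of 0.07 and 0 passing in edgeR. Prdx4, a peroxiredoxin of the ER, averaged 69.7 ± 52.7 CPM among WT (SD, n = 3) and 188 ± 47.5 CPM among KO mice (SD, n = 4), for a log2 fold change of 1.44 (SE 0.48, edgeR adjusted p = 0.129). P4hb, the founding disulfide isomerase, was at 0.92 (SE 0.42). On the other side Tmx3 was at -0.75 (SE 0.19, edgeR adjusted p = 0.116) and Tmx2 at -0.41 (SE 0.19), both transmembrane thioredoxin-like proteins. KO and WT ranges did not overlap for 5 of the 18, with Prdx4 and Pdia2 higher and Tmx3, Tmx2 and Pdia5 lower, beside the 6.74% and 9.17% of all tested genes given above. Pdia2, a disulfide isomerase known from the pancreas, was at 1.49 (SE 0.74) and Pdia5 at -0.49 (SE 0.24), both named after their values were seen.

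Of 11 tested genes of the lectin cycle, which trims and checks the sugars read by calreticulin and calnexin, 10 were above 0 and 0 passed, with a median of 0.39. Mogs, the first glucosidase to act, was at 0.71 (SE 0.26) and the cargo receptor Lman1 at 0.67 (SE 0.32), while Prkcsh, a subunit of the other glucosidase, was at -0.38 (SE 0.25). Among 9 prolyl isomerases and the collagen chaperone, 4 were above 0 and 0 passed, with a median of -0.26. Serpinh1, the collagen chaperone, averaged 115 ± 59.0 CPM among WT (SD, n = 3) and 44.2 ± 10.5 CPM among KO mice (SD, n = 4). It had a log2 fold change of -1.38 (SE 0.34, edgeR adjusted p = 0.116), and Fkbp10, which also acts on collagen, was at -1.40 (SE 0.49). Of the 8 fibroblast markers, 7 were below 0, 0 passed in edgeR, and Dcn was at 0.0027. Fkbp2 at 0.81 (SE 0.34) and Ppib at 0.75 (SE 0.35) were above 0.

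Regulators of the unfolded protein response were also without a gene past the threshold (0 of 15 tested in edgeR), with 10 above 0 and a median of 0.21 in KO against WT. Xbp1, the target of IRE1, averaged 231 ± 113 CPM among WT (SD, n = 3) and 359 ± 121 CPM among KO mice (SD, n = 4), for a log2 fold change of 0.63 (SE 0.38, edgeR adjusted p = 0.320). Atf6, the sensor that acts on the element shown above, was at 0.58 (SE 0.35) and Atf4, the effector of PERK, at 0.45 (SE 0.30). Ddit3, which encodes the stress factor CHOP, was low in both groups, at 3.68 ± 0.715 and 3.63 ± 0.536 CPM, with a log2 fold change of -0.03 (SE 0.29). The counts do not show splicing of Xbp1 or cleavage of ATF6. Ppp1r15a, which reverses the translational block set by PERK, was at 0.67 (SE 0.24, edgeR adjusted p = 0.138) and Herpud1 at 1.10 (SE 0.58), while Trib3 and Ern2 were at -1.0 (SE 0.48) and -1.40 (SE 0.83).

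Chaperones outside the ER served for comparison. Of 24 cytosolic and mitochondrial chaperones 9 were above 0 in KO against WT and 0 passed in edgeR, with a median of -0.19. Hspa1b, the heat-inducible HSP70, averaged 3.70 ± 1.02 CPM among WT (SD, n = 3) and 1.39 ± 0.465 CPM among KO mice (SD, n = 4), for a log2 fold change of -1.40 (SE 0.40, edgeR adjusted p = 0.116). Its partner Bag3 was at -0.62 (SE 0.24), and the chaperonin subunits Cct5 and Tcp1 were at 0.54 (SE 0.22) and 0.39 (SE 0.21). The digestive enzymes, the main cargo of the acinar ER, had 28 of 28 tested genes above 0 (of 31 in the table), 0 past the threshold in edgeR and a median of 1.17, beside the 0.51 of the 10 folding genes. Whether these medians differ was not tested.

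The medians of these lists rest on the scaling and on WT-2404 as those of the 10 genes do, in alternatives chosen after seeing the data. By library size alone, where the median over all tested genes was -1.17, the medians were -0.46 for the BiP system, -1.20 for the oxidoreductases, -0.85 for the lectin cycle, -1.61 for the prolyl isomerases with the collagen chaperone, -1.03 for the response regulators and -1.45 for the chaperones outside the ER. The digestive enzymes stayed above 0, at 0.56. Without WT-2404 the medians under TMM were 0.32 for the BiP system, 0.15 for the oxidoreductases and 0.22 for the lectin cycle. They were -0.07 for the prolyl isomerases with the collagen chaperone and 0.13 for the response regulators. For the chaperones outside the ER the median was -0.04, and for the digestive enzymes 0.61.

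**Figure D5:**
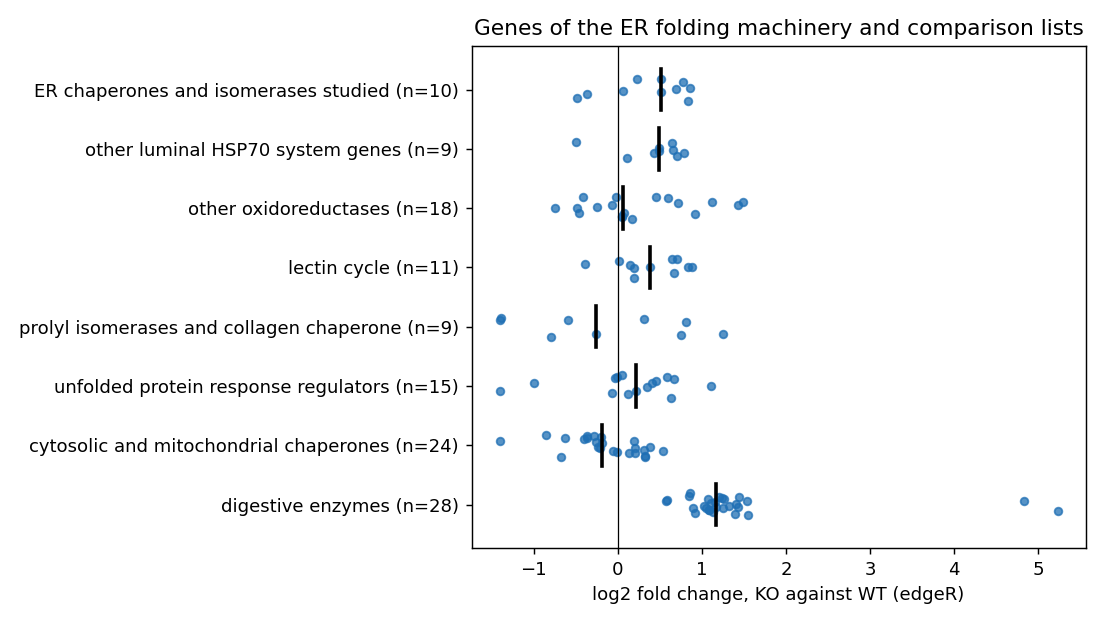
Log2 fold change of KO against WT (horizontal axis) for each tested gene of 8 lists (points, jittered vertically), with the list's median as a black bar and the number of genes in brackets. The folding genes and the other BiP system genes have medians of 0.51 and 0.49, the prolyl isomerase and collagen chaperone list and the chaperones outside the ER lie at -0.26 and -0.19, and the digestive enzymes at 1.17.

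The ER stress element was also followed outside the 10 genes. Promoter windows with it belonged to 37 gene symbols in all, of which 18 were tested, the 5 named above among them. Of the other 13, 10 were above 0 in KO against WT with a median of 0.74, and 0 of the 18 passed in edgeR. Over all 18 the median was 0.5, where all tested genes had a median of 0.03 and 51.8% above 0. These values come from TMM scaling with all 10 libraries, and no other scaling was applied to this set. Genes of the ER among these 13 were Ero1b (counted under its older symbol Ero1lb) at 1.12, Derl3 at 0.87, Dnajc3 at 0.78, Syvn1 at 0.74, Creld2 at 0.49 and Alg12 at 0.13. The others were Xlr3a at 1.83, Acacb at 1.02, Pan2 at 0.74, Hnrnpa3 at 0.26, Adcy3 at -0.79, Zfp57 at -0.80 and Spats2l at -1.38. These genes were named after their values were seen.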

How the data were processed

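RNA of pancreas tail pieces was sequenced from 10 mice after mRNA selection with a stranded kit, per the labels' protocols. One further WT mouse counted in a label was not analysed here. Another component of the genotype, shared by every group, is not reported here. Values in the deposited table are raw counts, 1 row per gene symbol. Build mm10 and the tools DRAGEN, STAR and Cufflinks are named in the submitters' processing notes, without role or order. The counting tool, its use of strand and the annotation are not given in the sources used here.

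All 10 columns were matched to samples by name (0 left over). The 2 rows that name no gene, no_feature and ambiguous (2.59% to 8.71% and 0.101% to 0.584% of all counts), stayed out of library sizes and tests. Genes were filtered with filterByExpr (minimum count 10), scaled with TMM and tested across all 13688 genes with edgeR 4.0.16 (quasi-likelihood, robust, two-sided) in 1 fit of 3 groups without covariates. Adjustment of p-values was that of Benjamini and Hochberg, and adjusted values under 0.05 passed. Log2 CPM used a prior count of 2. At a depth of 11718559 to 19024351 gene counts, a count of 0 allows up to 3 counts, or 0.158 to 0.256 CPM of the unscaled library. Exact permutation tests over mice were two-sided. Alternatives used other scalings, DESeq2 1.42.0, another filter, other samples and a covariate. The fit was tested on simulated data.

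The 10 genes and all lists were chosen with earlier results of these data known. From lists, up to 2 genes per direction with the smallest p in KO against WT were named, and Xbp1, Atf6, Atf4, Ddit3 and Insr in any case. Genes of the promoter windows were matched to the table by symbol or, in 1 case, by an older symbol in RefSeq. The 5 genes nearest to the mean profile were named too. Libraries of a group differed by more than sampling noise (chi-square per degree of freedom 26.5 to 988). The labels give 1 mouse per library, and no batch, litter or date.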

Additional observations from a re-analysis of the deposited data

Results flagged for a closer look

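Of 23 measures in the 4 KO libraries, Dixon's test marked 1 library as apart, and about 1.15 such marks arise by chance. The log2 level of Hspa5 relative to the other 9 genes was 2.346 in KO-2126 and 2.195 to 2.216 in the other KO libraries. The groups of 3 libraries were not tested. KO-2126 also had the lowest TMM factor, 0.596, and the cause was not tested.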

How the results depend on the processing

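By library size alone, 2 of the 10 genes (Pdia4 and Calr) passed in KO against WT. The same 2 passed in Het against WT, and the medians were -0.6363 and -0.705. In KO against WT, the fold changes that reversed under this scaling were Hspa5 -0.4586, Hsp90b1 -1.051, Pdia6 -0.7003, Canx -1.251, Hyou1 -0.2222, Dnajb9 -0.5724, Sdf2l1 -0.08208 and Manf -0.1599. In Het against WT they were Hspa5 -0.5976, Hsp90b1 -1.334, Pdia6 -0.8124, Canx -1.315, Hyou1 -0.3063, Dnajb9 -0.5262, Sdf2l1 -0.09004 and Manf -0.2155. In KO against Het, Pdia4 at 0.05071, Canx at 0.06382 and Sdf2l1 at 0.007964 reversed by library size alone and Calr at -0.0008989 with enzymes left out of the scaling. By construction, library size alone leaves the shift of all genes in place (-1.17, -1.36 and 0.167).

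Leaving out 1 library at a time, 0 to 3 genes passed for KO against WT and 0 to 2 for Het against WT, the highest without WT-2067. Fold changes that crossed 0 in such fits ran from -0.04513 to 0.1721 for Canx in KO against WT and from -0.03355 to 0.1313 for Hsp90b1 in Het against WT. In KO against Het they ran from -0.0927 to 0.1809 for Hspa5, -0.115 to 0.06685 for Pdia4, -0.04735 to 0.1873 for Pdia6, -0.1313 to 0.1497 for Calr, -0.1264 to 0.08563 for Canx, -0.1464 to 0.179 for Hyou1, -0.1677 to 0.02196 for Sdf2l1 and -0.1262 to 0.1933 for Manf. RLE factors, DESeq2, the filter of at least 1 count, fits of only the 2 groups compared and the enzyme covariate left 0 of the 10 genes past the threshold in each comparison. DESeq2 called 1009 genes of all tested in KO against WT and 400 for Het against WT, with smallest adjusted p among the 10 of 0.0722 and 0.0848. The cause of these shifts was not tested. No paired analysis was possible because the mouse numbers in the labels are not shared between groups.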
